A study of Mus musculus with 10 samples.

Results

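Genes that mark injured or dedifferentiated kidney tubule cells were followed across cultured ureteric bud (UB) organoids, collecting duct (CD) organoids and sorted adult collecting duct cells. The group holds 7 genes, Lcn2, Clu, Prom1, Cd44, Vim, Vcam1 and Havcr1, taken by name from the 39273 genes of the deposited expression table. All 7 passed the minimum of 10 counts over the 10 libraries, as 24410 genes did. Havcr1 passed it only through the adult libraries, so its lower level in culture was built into being tested.

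RNA-seq was performed on 5 groups of 2 libraries. UB organoids were grown from ureteric buds of E11.5 mouse embryos (Wnt11-RFP +/-, C57BL/6 x Swiss Webster, a reporter that glows red in UB tip cells) in Matrigel with a medium holding LDN-193189, TTNPB, CHIR99021, JAK Inhibitor I, GDNF, A83-01, Rspo1, FGF9 and SB202190, and were collected after 5, 10 or 20 days. CD organoids were made from day 10 UB organoids by 7 further days in a differentiation medium without JAK Inhibitor I, which holds the hormones aldosterone and vasopressin, the inhibitors DAPT, PD0325901 and Y27632, and FGF9. Adult mCDs were collecting duct cells of mice about 2 months old, purified by fluorescence-activated cell sorting for Hoxb7-Venus, a reporter driven by a promoter of the UB lineage. The labels of the adult libraries instead name an organoid, embryonic day 11 and the Wnt11-RFP genotype, and the study's description is followed here. Nothing says that the 2 libraries of a group came from separate cultures or animals, so p-values measure the spread between these libraries, which may be technical.

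When a tubule is damaged, surviving epithelial cells give up part of their transport program, spread over the bare basement membrane and re-enter the cell cycle, and they switch on a set of secreted and surface proteins. Lcn2 and Havcr1 encode the urinary injury markers NGAL and KIM-1. Lcn2 is known from the distal nephron and collecting duct and Havcr1 from the proximal tubule, while Prom1 and Vim mark scattered, less differentiated tubule cells.

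Read counts scaled to library size with the trimmed mean of M-values (TMM), written CPM, were used to compare 1 gene between libraries. A gene was called when the Benjamini-Hochberg adjusted p of edgeR's quasi-likelihood test was at or under 0.01 and the change was over 4-fold. Total counts ran from 11913613 to 24536676, and 3 counts, the limit of detection used here, were worth 0.109 to 0.241 CPM.

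Several facts of the libraries bear on these genes. The adult libraries held 10786 and 13236 CPM summed over 10 proximal tubule markers, against 8.26 to 41.2 CPM in the 8 cultured libraries, and 3295 and 3487 CPM over 3 loop of Henle markers against 0 to 5.61. The 7 endothelial markers summed to 886 and 907 CPM in adult mCDs and to 2.56 to 9.95 in culture. Principal cell markers reached 11986 and 11519 CPM in adult mCDs and 1497 and 1334 in CD organoids, and intercalated cell markers 2616 and 2709 against 1896 and 1812. These sums hide differences between markers. In CD organoids Slc4a1 stood at 2.78 and 2.25 CPM against 545 and 530 in adult mCDs, and Aqp3 at 23.6 and 19.0 against 1948 and 1892. Foxi1 went the other way, at 508 and 472 CPM in CD organoids against 169 and 169. Y-linked genes summed to at most 0.875 CPM at days 5 and 10 and to at least 230 CPM in all other libraries. The day 20 and CD organoids thus differed from day 10 in these genes, although CD organoids are described as made from day 10 organoids. Depth split the same way, with 22858971 to 24536676 counts at days 5 and 10 and 11913613 to 16759872 in the others. In every comparison of day 5 or day 10 with a group on the other side, the part of this split cannot be told apart from that of the group. Mitochondrial transcripts took 9.64% and 9.86% of adult counts and 0.969% to 3.39% of cultured counts.

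**Figure D1:**
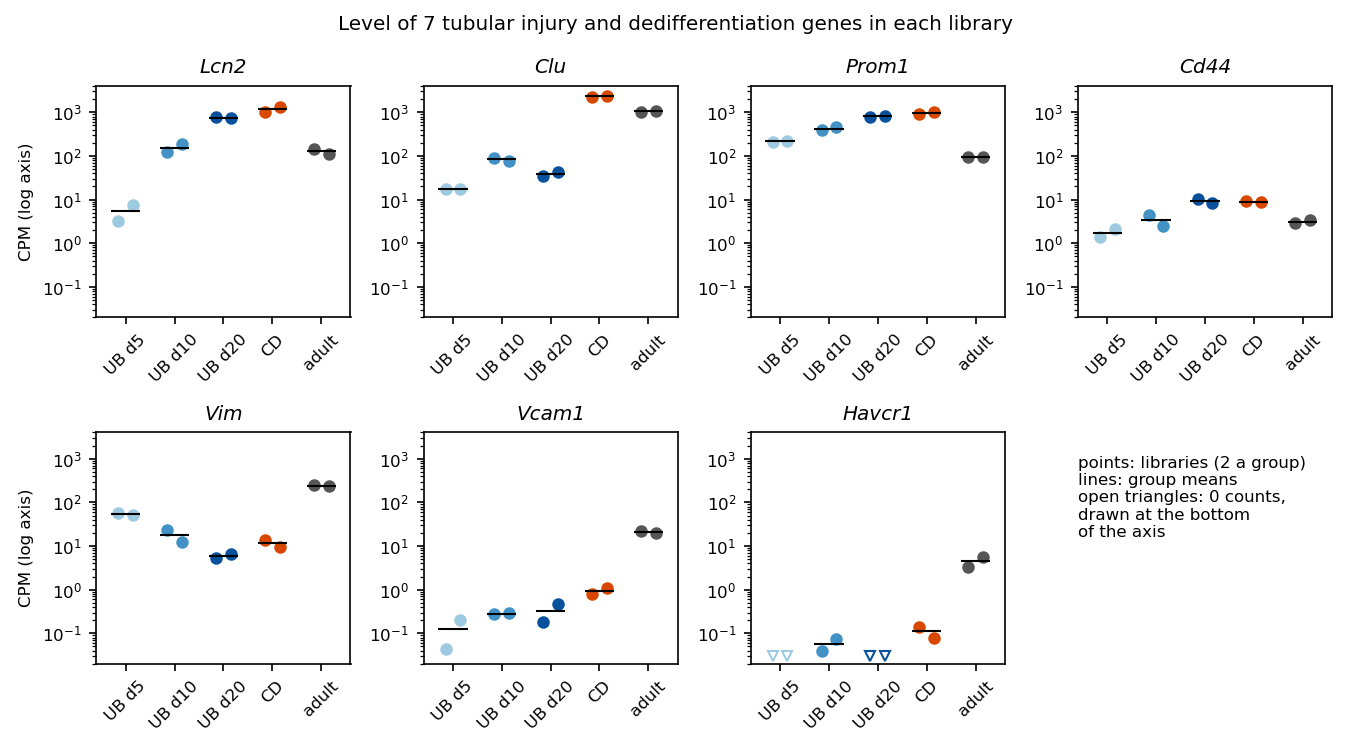
Level of each gene in CPM on a log axis for the 2 libraries (points) and the mean (line) of each group, with open triangles for libraries at 0 counts. Lcn2 climbs from 5.36 to 753 CPM over UB culture, Clu stands highest in CD organoids at 2319 CPM, and Vim, Vcam1 and Havcr1 stand highest in the adult libraries.

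Lcn2, which encodes the siderophore-binding protein lipocalin 2 (ENSMUSG00000026822, chr2:32384633-32388252, minus strand, GRCm38), had the largest fold change of the 7 within UB culture. It stood at 3.25 and 7.47 CPM in the day 5 libraries, 122 and 187 at day 10, 759.7 and 747 at day 20, 1012 and 1323 in CD organoids, and 146 and 109 in adult mCDs. The cultured groups lay in this order with no overlap, whereas the day 10 and adult libraries overlapped. Lcn2 rose 28.4-fold from day 5 to day 10 (log2 fold change 4.83 ± 0.300 SE, adjusted p = 1.73e-07) and 4.87-fold from day 10 to day 20 (adjusted p = 1.34e-05). CD organoids held 7.55 times the day 10 level (log2 fold change 2.92 ± 0.246, adjusted p = 2.86e-07) and 1.55 times that of day 20, which was not called (0.63 ± 0.229, adjusted p = 0.0404). Against adult mCDs, Lcn2 was 23.4-fold lower at day 5 (adjusted p = 9.2e-09), was not called at day 10 (0.28 ± 0.236, adjusted p = 0.313), and was 5.92-fold higher at day 20 (6.18e-07) and 9.18-fold higher in CD organoids (3.20 ± 0.252, adjusted p = 1.38e-07). Without the second day 5 library, the log2 fold change was 5.55 from day 5 to day 10 and -5.27 at day 5 against adult mCDs, and both stayed called.

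Neutrophils also make Lcn2. Of 6 neutrophil markers, none had more than 3 counts in any CD organoid, day 20 or adult library, all 6 were at 0 in both CD organoid libraries, and their sum was at most 0.472 CPM in any library. Leukocyte markers summed to 37.5 and 44.1 CPM in CD organoids. Of these sums, 37.4 and 43.7 CPM came from Ptprc, and 6 or 7 of the 10 markers were at 0. Ptprc put the cultured groups in the same order as Lcn2, from 0.213 CPM in its lowest day 5 library to 43.7 CPM in CD organoids. Adult mCDs, with 16.4 and 14.0 CPM of Ptprc, lay above every UB organoid library, unlike for Lcn2. The part of leukocytes in the Lcn2 levels was not tested. The Y-linked difference between days 10 and 20 moved with the Lcn2 difference between them, and its part in the result cannot be told apart from that of time in culture. From day 5 to day 10, Y-linked genes were near 0 in all 4 libraries.

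Clu, which encodes the secreted chaperone clusterin (ENSMUSG00000022037, chr14:65968483-65981547, plus strand), was high in both collecting duct groups. Its level was 17.1 and 17.5 CPM at day 5, 88.1 and 77.9 at day 10, 34.6 and 42.4 at day 20, 2268 and 2371 in CD organoids, and 1039 and 1069 in adult mCDs. No groups overlapped, and the UB organoids were below every collecting duct library. CD organoids held 27.9 times the Clu of day 10 UB organoids (log2 fold change 4.80 ± 0.107, adjusted p = 1.86e-12) and 60.2 times that of day 20 (5.91 ± 0.114, adjusted p = 1.65e-12). Within UB culture Clu rose 4.78-fold from day 5 to day 10 (adjusted p = 1.33e-08), and its day 20 level was 2.15-fold below that of day 10, under the 4-fold limit (adjusted p = 3.15e-06). It was lower than in adult mCDs at day 5, day 10 and day 20 (60.7-, 12.7- and 27.4-fold, highest adjusted p = 2.22e-12), while CD organoids were 2.20-fold above the adult level, again under the limit (1.14 ± 0.0915, adjusted p = 1.72e-07). With limma on log2(RPKM + 1) the day 5 to day 10 step was 1.85 and was not called. In these bulk samples, more cells of a type and more RNA per cell cannot be told apart.

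Among the cultured groups, both Clu and Lcn2 were called higher in CD organoids than at day 10, but they differed in their relation to day 20. From day 10 to day 20 Lcn2 rose while Clu was lower, and between day 20 UB organoids and CD organoids Clu rose while Lcn2 was not called.

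Prom1 encodes prominin 1, a cholesterol-binding protein of membrane protrusions (ENSMUSG00000029086, chr5:43993620-44102032, minus strand). Its level was 213 and 222 CPM at day 5, 399.6 and 449 at day 10, 790.4 and 831 at day 20, 893 and 1015 in CD organoids, and 92.3 and 93.8 in adult mCDs. All 8 cultured libraries were above both adult libraries, and the groups did not overlap. Prom1 was 1.95-fold higher at day 10 than at day 5 and 1.91-fold higher at day 20 than at day 10, steps that were small beside the 4-fold limit and large beside the spread (log2 fold changes 0.97 ± 0.0838 and 0.93 ± 0.0834, adjusted p = 2.19e-06 and 3.29e-06). CD organoids stood 2.25-fold above day 10 (adjusted p = 5.68e-08) and 1.18-fold above day 20 (0.23 ± 0.0827, adjusted p = 0.0355). Against adult mCDs the difference passed at day 10 (4.56-fold, adjusted p = 7.13e-11), day 20 (8.71-fold, 5.58e-12) and in CD organoids (10.2-fold, log2 fold change 3.36 ± 0.0921, adjusted p = 7.55e-12), and stayed under the limit at day 5 (2.33-fold, 1.98e-08). The day 10 call was lost with limma on log2(RPKM + 1), at 1.80. Reads of 2 overlapping genes, Gm42716 and the antisense Gm16401, numbered at most 44 and 25 in any library.

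Cd44, the hyaluronan receptor (ENSMUSG00000005087, chr2:102811141-102901665, minus strand), was low throughout. It stood at 1.37 and 2.12 CPM at day 5, 4.48 and 2.48 at day 10, 10.4 and 8.13 at day 20, 9.11 and 8.66 in CD organoids, and 2.86 and 3.38 in adult mCDs. The day 20 and CD organoid libraries overlapped each other and lay above all others, and the day 10 libraries lay on either side of the adult pair. Cd44 was called in none of the 8 comparisons by edgeR or DESeq2, although its adjusted p was at or under 0.01 in 4 of them. These 4 differences were of 2.95-fold for day 20 against adult mCDs (1.56 ± 0.296, adjusted p = 3.93e-04), 2.82-fold for CD organoids against adult mCDs (adjusted p = 7.71e-04), 2.66-fold for day 20 against day 10 (adjusted p = 0.00152) and 2.54-fold for CD organoids against day 10 (adjusted p = 9.73e-04). With library totals alone in place of TMM, the day 20 difference from adult mCDs reached 2.01 on the log2 scale and was called.

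Vim encodes the intermediate filament vimentin, found in mesenchymal cells, endothelium and dedifferentiated tubule cells (ENSMUSG00000026728, chr2:13573927-13582826, plus strand). Its level was 56.5 and 51.2 CPM at day 5, 23.5 and 12.1 at day 10, 5.22 and 6.48 at day 20, 13.8 and 9.54 in CD organoids, and 248 and 232 in adult mCDs. Vim thus ran against Lcn2, Prom1 and Cd44 in UB culture, with lower values in each later group and no overlap. Neither step was called (-1.60 ± 0.214, adjusted p = 7.6e-05 from day 5 to day 10, and -1.60 ± 0.272, adjusted p = 6.34e-04 from day 10 to day 20), although without the first day 10 library the day 5 to day 10 step was -2.15 and was called. CD organoids differed from day 10 by -0.59 (adjusted p = 0.0688, overlapping libraries) and from day 20 by 1.00 (adjusted p = 0.0149). Vim was lower than in adult mCDs by 4.46-fold at day 5 (adjusted p = 4.16e-07), 13.5-fold at day 10 (3.36e-09), 40.8-fold at day 20 (6.09e-10) and 20.3-fold in CD organoids (4.38e-09). With library totals alone the day 5 difference was -1.82 and was not called, and with limma on log2(RPKM + 1) it was -1.98 and was not called.

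Vim is also a gene of stromal and endothelial cells, and endothelial markers were high in the adult libraries as given above. The 9 stromal markers summed to 180 and 196 CPM in adult mCDs, 281 and 149 in CD organoids, and 13.7 to 39.9 in UB organoids. In CD organoids most of this sum came from Col3a1, Col1a1 and Col1a2. The library with the higher sum had the higher Vim in CD organoids and at day 10. It had the lower Vim at day 5 and in adult mCDs. At day 20 the sums were too close to order the libraries (14.9 and 14.8 CPM). The part of these cells in the Vim levels was not tested.

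Vcam1, an adhesion molecule that binds integrin alpha 4 (ENSMUSG00000027962, chr3:116109949-116129688, minus strand), was near the limit of detection in UB organoids. The libraries held 1 and 5 counts at day 5, 7 and 8 at day 10, 3 and 7 at day 20, 11 and 14 in CD organoids, and 292 and 254 in adult mCDs. In CPM these were 0.0427 and 0.204, 0.278 and 0.292, 0.182 and 0.463, 0.783 and 1.12, and 22.0 and 20.0. The CD organoids lay above every UB organoid library but were not called against day 10 (1.56 ± 0.480, adjusted p = 0.00867) or day 20 (1.43 ± 0.523, adjusted p = 0.0261). Against adult mCDs Vcam1 was lower in all 4 cultured groups, by 6.88 ± 0.393, 5.96 ± 0.344, 5.82 ± 0.366 and 4.40 ± 0.318 on the log2 scale at day 5, day 10, day 20 and in CD organoids (highest adjusted p = 5.04e-08). Without the second day 5 library the day 5 difference was -7.73, and without the second day 20 library the day 20 difference was -6.48, both still called. On log2(RPKM + 1) with limma, where low genes shrink, the 4 differences were -1.55, -1.52, -1.52 and -1.44 and were not called.

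Havcr1, a phosphatidylserine receptor that lets proximal tubule cells engulf dying neighbours (ENSMUSG00000040405, chr11:46735080-46779578, plus strand), was not detectable above the limit in culture. Both libraries had 0 counts at day 5 and at day 20, the day 10 libraries had 1 and 2, the CD organoid libraries 2 and 1, and the adult libraries 45 and 70, equal to 3.39 and 5.50 CPM. No fold change between cultured groups is given, since all were at or under 3 counts a library. Set at 3 counts a library, Havcr1 was at least 35.5-fold lower at day 5 and at least 23.4-fold lower at day 20 than in adult mCDs. The adult level was 77.6 times that of day 10 (95% interval 25.9 to 382, from counting error only) and 39.1 times that of CD organoids (13.0 to 192). All 4 differences met the call limits, but this carries no weight, since Havcr1 passed the count minimum only through the adult libraries. None was called with limma on log2(RPKM + 1), which gave -0.75 to -0.73.

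The adult signal of Havcr1 and Vcam1 moved with the proximal tubule, loop of Henle and endothelial markers given above, which were highest in adult mCDs. Principal cell and intercalated cell markers were highest there too, so this order of groups does not separate the cell types. In culture, the second libraries of day 20 and of CD organoids held more of the proximal tubule gene Kap than their pairs (6.35 against 0.789 CPM, and 7.86 against 1.5), beside 4703 and 6023 CPM in adult mCDs. Summed over all 10 proximal tubule markers, the first and second libraries held 36.5 and 41.2 CPM at day 20, and 8.26 and 21.9 in CD organoids. Lrp2 alone of these was lower in the second day 20 library (28.4 against 32.8 CPM). The part of other tubule segments or of the sort in the adult levels was not tested.

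**Figure D2:**
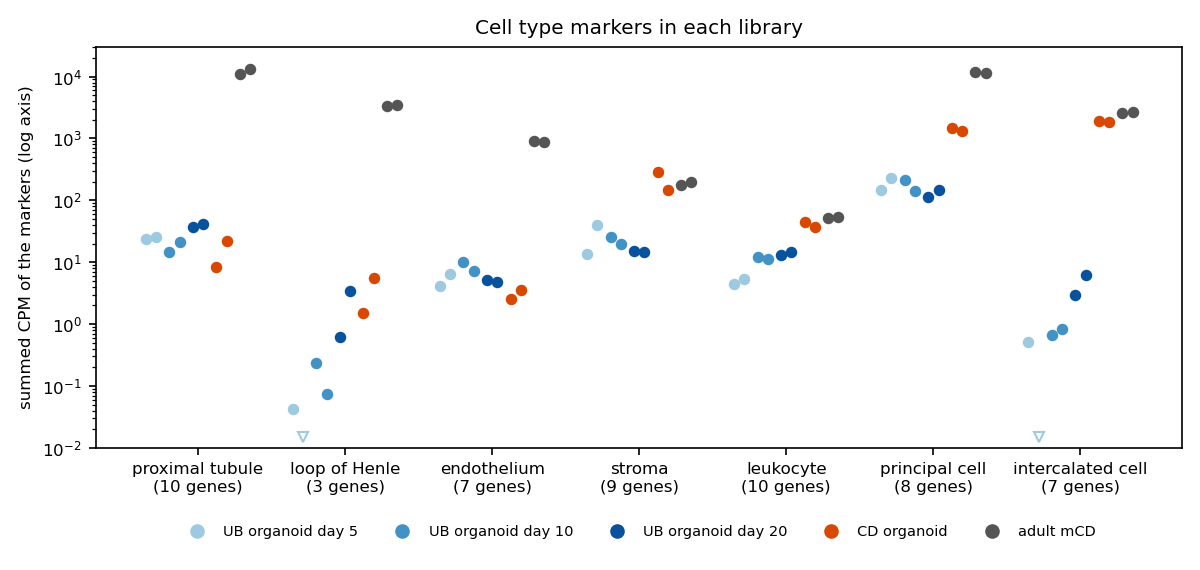
Summed CPM of cell type markers on a log axis in each library, with open triangles at 0. Proximal tubule, loop of Henle and endothelial markers are high in both adult libraries and low in culture, while the 10 leukocyte markers reach 37.5 and 44.1 CPM in CD organoids and 51.3 and 53.8 in adult mCDs.

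Of the list, 2 of the 7 genes were called higher and none lower at day 10 than at day 5 (Lcn2 and Clu), where 2.34% of all tested genes were called higher and 1.07% lower. From day 10 to day 20, Lcn2 alone was called higher and none of the 7 was called lower at the 4-fold limit, although 3 were higher and 2 lower at an adjusted p of 0.05 with any fold, with 1.66% of all genes higher and 1.73% lower. In CD organoids Lcn2 and Clu were called higher than at day 10 (background 4.96% higher and 5.71% lower), and Clu alone was called higher than at day 20 (4.74% and 4.73%). The median log2 fold change of the 7 was 0.97, 0.13, 1.35 and 1.00 in these comparisons, and that of all tested genes 0.02, -0.10, -0.15 and 0.00.

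Against adult mCDs, none of the 7 was called higher and 5 were called lower at day 5, where 9.55% of all genes were called higher and 14.8% lower. At day 10, 1 was higher and 4 were lower (background 9.1% and 13.4%), at day 20, 2 were higher and 4 lower (6.89% and 12.3%), and in CD organoids, 2 were higher and 3 lower (4.5% and 9.84%). The members called higher were Prom1 at day 10, and Lcn2 and Prom1 at day 20 and in CD organoids. Vim, Vcam1 and Havcr1 were called lower in all 4 comparisons, which share the same adult libraries. Havcr1 is thus among the genes counted as lower in each, although the count minimum had fixed its direction. The median log2 fold change was -4.55, -3.67, -4.77 and 1.14, beside 0.12, 0.21, 0.06 and 0.00 over all tested genes. Clu was called lower in the 3 UB organoid comparisons and was not called in CD organoids, where its difference of 1.14 was under the 4-fold limit.

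**Figure D3:**
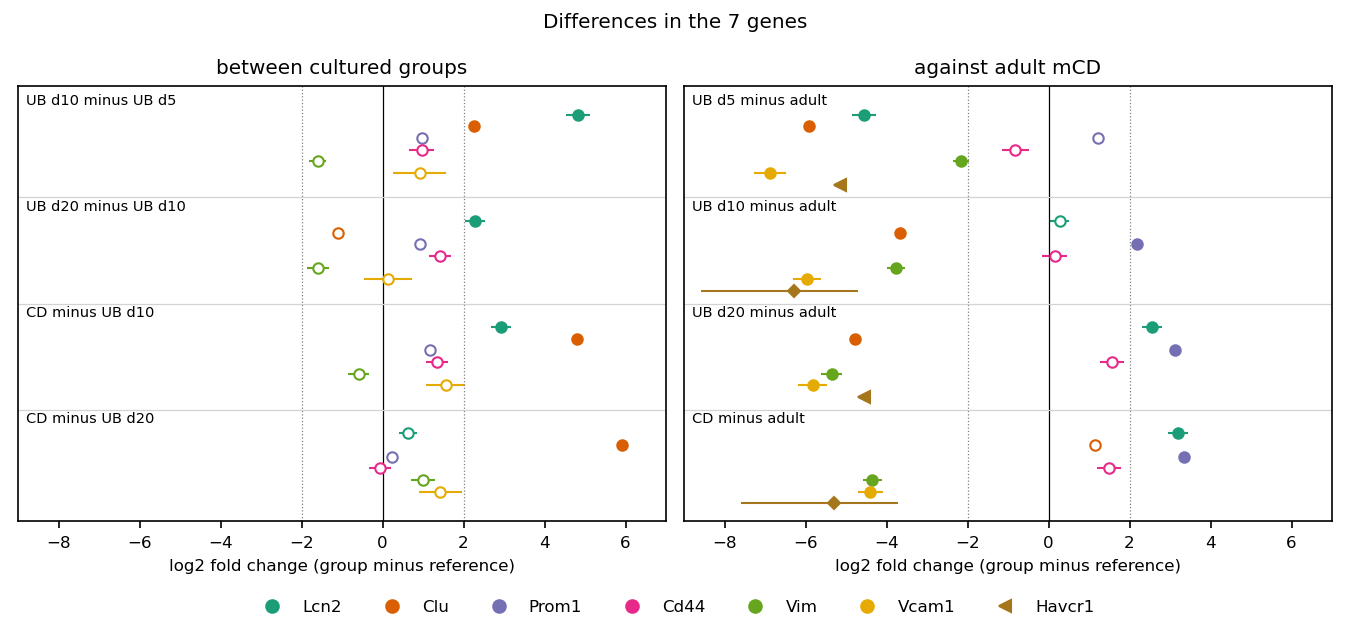
Log2 fold change of each gene between cultured groups (left) and against adult mCDs (right), with filled circles for called genes, bars of 1 SE and dotted lines at 4-fold. Triangles give the smallest fold by which Havcr1 can be lower where it had 0 counts, diamonds its ratio with the 95% counting interval, and Lcn2 and Prom1 sit right of the line at day 20 and in CD organoids while Vim, Vcam1 and Havcr1 sit left of it.

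Levels of different genes were compared per length. The gene length in the deposited table was within 5% of the summed exon length of all transcripts for 98.4% of genes, so genes with many transcripts have a low deposited RPKM. The table's length exceeded the merged exon length 5.87 times for Prom1 (42082 against 7175 bases, 19 transcripts), 3.73 times for Cd44, 2.81 for Havcr1, 2.34 for Clu, 2.13 for Lcn2, 1.89 for Vim and 1.22 for Vcam1, against a median of 1.01 over all genes. This changed the order of the genes within a sample. At day 5, Vim was the highest of the 7 by deposited RPKM (6.12 ± 0.330, against 5.25 ± 0.230 for Prom1), whereas over merged exons Prom1 was highest (30.8 ± 1.35 RPKM, against 11.6 ± 0.623 for Vim, SD, n = 2).

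Over merged exons, the order at day 10 was Prom1 (60.3 ± 4.88 RPKM) and Lcn2 (60.1 ± 17.6), which did not differ beyond their spread, then Clu (24.6 ± 2.20) and Vim (3.83 ± 1.73). At day 20 Lcn2 (299 ± 5.16) led Prom1 (118 ± 3.59) and Clu (11.7 ± 1.62), and Cd44 (1.43 ± 0.258) and Vim (1.28 ± 0.189) lay within their spread. In CD organoids Clu (696 ± 21.3) ranked 18 among all genes, Lcn2 (459 ± 86.0) ranked 35 and Prom1 (137 ± 12.3) ranked 190. In adult mCDs Clu (310.3 ± 4.63) led, Vim (51.2 ± 2.65) and Lcn2 (49.1 ± 10.3) lay within their spread, and Prom1 (13.1 ± 0.0866), Vcam1 (2.39 ± 0.177), Havcr1 (1.95 ± 0.644) and Cd44 (0.466 ± 0.0522) followed. Cd44 was thus the lowest of the 7 in adult cells, and Vcam1 and Havcr1 there lay within their spread.

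**Figure D4:**
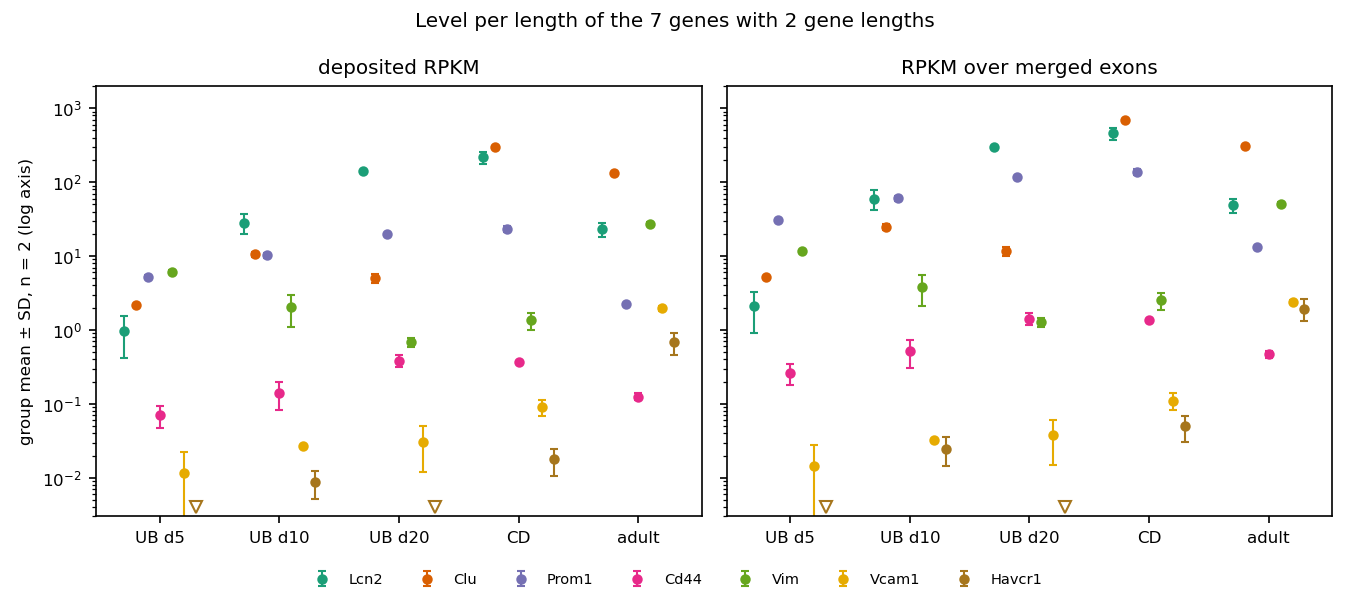
Mean ± SD of 2 libraries in RPKM on a log axis, with the gene length of the deposited table (left) and with merged exons (right), and open triangles for groups at 0. Prom1 moves up most, from 5.25 to 30.8 RPKM at day 5 and from 23.4 to 137 in CD organoids.

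Promoter windows of the members that moved in different directions in culture are shown to let their sequence be compared. RefSeq (GRCm38.p6) gave windows for 5 of the 7 genes, with 2 starts for Prom1 and 3 for Havcr1, and the 250 bases before the first listed start are printed 5′ to 3′ on the gene's strand. Capitals mark matches on either strand to AP-1 (TGANTCA), STAT (TTCNNNGAA), C/EBP (TTGCNNAA) or the NF-kB consensus. Over all 32851 windows of this length, 6.75% held the AP-1 letters, 7.02% the STAT letters, 9.56% the C/EBP letters and 7.25% the NF-kB consensus.
Lcn2, chr2:32387740-32387989, minus strand: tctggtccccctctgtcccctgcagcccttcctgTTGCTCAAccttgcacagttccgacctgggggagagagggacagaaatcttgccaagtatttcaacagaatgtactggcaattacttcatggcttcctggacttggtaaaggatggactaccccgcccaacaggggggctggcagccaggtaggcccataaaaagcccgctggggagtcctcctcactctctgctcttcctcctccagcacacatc
Prom1, chr5:44101737-44101986, minus strand: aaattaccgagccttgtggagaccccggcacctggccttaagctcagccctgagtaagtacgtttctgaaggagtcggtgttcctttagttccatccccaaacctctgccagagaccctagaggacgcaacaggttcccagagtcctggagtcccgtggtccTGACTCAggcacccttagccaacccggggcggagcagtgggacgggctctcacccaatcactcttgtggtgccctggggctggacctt
Vim, chr2:13574061-13574310, plus strand: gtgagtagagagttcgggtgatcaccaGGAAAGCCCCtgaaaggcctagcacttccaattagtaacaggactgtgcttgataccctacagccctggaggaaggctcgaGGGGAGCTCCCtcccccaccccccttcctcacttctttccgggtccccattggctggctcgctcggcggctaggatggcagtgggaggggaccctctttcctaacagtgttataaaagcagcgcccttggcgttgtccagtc
Lcn2 held 1 C/EBP match at positions -216 to -209 from the start, and Prom1 held 1 AP-1 match at -88 to -82. Vim held 3 NF-kB matches, at -223 to -214 on the other strand and at -142 to -133 and -141 to -132, which overlap. Of the windows not printed, the second of Prom1 held 1 AP-1 match at -189 to -183, the second of Havcr1 held 1 C/EBP match at -46 to -39, and those of Cd44 and the other Havcr1 starts held none of the 4. The printed Prom1 window also lies in an exon of the antisense gene Gm16401. All printed windows lie inside the gene spans given above, downstream of the outermost annotated start. All matches are of letters only.

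By Pearson's r of log2(CPM + 1) over the 10 libraries, among 10539 genes with a mean of at least 10 CPM, the genes most like each member were Hacd4 for Lcn2 (0.993), Pde7b for Clu (0.998), Tbc1d2b for Prom1 (0.992), Rnf170 for Cd44 (0.967), Galns for Vim (0.988), Ptger3 for Vcam1 (0.998) and Slc5a12, a proximal tubule lactate transporter, for Havcr1 (0.994). Among the members themselves, Havcr1 and Vcam1 (0.979) and Lcn2 and Cd44 (0.898) were most alike, and Prom1 and Vim (-0.96) ran most against each other. The 10 points are 5 groups of 2 libraries, so these values describe the order of the groups.

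Other injury and repair genes were read from a list of 29, of which 28 were tested. From day 5 to day 10, 4 of them were called higher and none lower at the 4-fold limit (DESeq2 gave the same counts, and 11 were higher and 8 lower at an unadjusted p under 0.05). From day 10 to day 20, 6 passed the limit upward and 3 downward. In CD organoids, 10 were called above their day 10 level and 2 below it, and against day 20 these counts were 10 and 4. In this order of comparisons, 2.34%, 1.66%, 4.96% and 4.74% of all tested genes were called higher and 1.07%, 1.73%, 5.71% and 4.73% lower. With DESeq2, 2 genes of the list rather than 4 were called lower in CD organoids against day 20, and the other counts were the same. C3, the central complement component, stood at 113 ± 13.6 CPM in CD organoids and 0.399 ± 0.00330 at day 10 (log2 fold change 7.96, adjusted p = 1.09e-11). Igfbp7, a secreted binding protein of insulin-like growth factors, rose with it from 32 ± 3.46 to 357 ± 17.2 CPM (3.48, adjusted p = 1.14e-08). Ccn1 and Ccn2, matricellular proteins and targets of YAP, rose from day 10 to day 20 (Ccn1 from 76.6 ± 35.3 to 1492 ± 264 CPM, adjusted p = 5.42e-08) and differed by -7.79 and -4.97 on the log2 scale in CD organoids relative to day 20.

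Against adult mCDs the same list was called higher in 0, 0, 0 and 4 genes and lower in 17, 17, 14 and 10 genes at day 5, day 10, day 20 and in CD organoids. Over all tested genes, 9.55%, 9.1%, 6.89% and 4.5% were called higher and 14.8%, 13.4%, 12.3% and 9.84% lower. With DESeq2, 15 genes of the list were lower at day 10 and 12 at day 20, and the other counts were the same. The genes counted as lower include Fgg and Fgb, which passed the count minimum only through the adult libraries, so their direction was fixed in advance. Spp1, the secreted phosphoprotein osteopontin, stood at 1978 ± 23.2 CPM in adult mCDs and at 0.105 to 7.35 in the means of the cultured groups. The 4 genes higher in CD organoids than in adult mCDs were C3, Anxa3, Dcdc2a and Tgfb2 (log2 fold changes of 2.87 for C3 and 2.92 for Tgfb2). The list's median log2 fold change against adult mCDs was -2.96, -2.99, -2.03 and -1.66.

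Of 15 genes of the NF-kB and STAT3 pathways, which drive Lcn2 and Vcam1 in inflamed tissue, edgeR called none from day 5 to day 10 or from day 10 to day 20 (9 and 12 had an unadjusted p under 0.05, and DESeq2 called none), and 5 were called higher and none lower in CD organoids against day 10 and again against day 20. The shares of all tested genes in this order were 2.34%, 1.66%, 4.96% and 4.74% higher and 1.07%, 1.73%, 5.71% and 4.73% lower. In CD organoids DESeq2 called 6 genes of the list higher than at day 10 and 5 higher than at day 20. Icam1, a leukocyte adhesion molecule, stood at 46.6 ± 3.71 CPM in CD organoids and 2.85 ± 2.02 at day 10 (4.03, adjusted p = 4.19e-08), and Cebpd, a C/EBP factor, at 56.9 ± 7.51 and 1.77 ± 0.911 (4.98, adjusted p = 2.42e-10). Against adult mCDs, 12, 11, 11 and 5 were lower and none higher, among them Socs3, a feedback inhibitor of cytokine receptors (583 ± 11.4 CPM in adult mCDs and 26.7 ± 0.54 in CD organoids, adjusted p = 1.81e-10). Among all tested genes, 14.8%, 13.4%, 12.3% and 9.84% were called lower there and 9.55%, 9.1%, 6.89% and 4.5% higher. With DESeq2, 12 genes of the list were lower than in adult mCDs at day 10, and the other counts were the same.

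Vim was set beside 11 genes of mesenchymal transition. Between cultured groups 0, 2, 3 and 2 were called higher and 1, 0, 3 and 3 lower, in the order of comparisons used above. Of all tested genes, 2.34%, 1.66%, 4.96% and 4.74% were called higher and 1.07%, 1.73%, 5.71% and 4.73% lower. Twist1, a transcription factor of mesenchymal cells, stood at 121 ± 1.31 CPM at day 10 and 1.49 ± 0.772 in adult mCDs (6.29, adjusted p = 3.21e-12), and Fn1, which encodes fibronectin, at 684 ± 33.9 and 101 ± 7.78 CPM (2.76, adjusted p = 4.11e-07). In this comparison Vim was lower at day 10. Zeb2, another such factor, was lower there too, at 30.1 ± 0.186 CPM in adult mCDs and 1.10 ± 0.522 at day 10 (-4.72, adjusted p = 1.21e-07). Against adult mCDs 2 of the 11 were called higher in each comparison, Twist1 with Tgfbi at day 5 and in CD organoids and Twist1 with Fn1 at days 10 and 20, and 6, 7, 6 and 8 were called lower. The shares of all tested genes were 9.55%, 9.1%, 6.89% and 4.5% higher and 14.8%, 13.4%, 12.3% and 9.84% lower. With DESeq2, 7 genes of the list rather than 8 were lower in CD organoids than in adult mCDs, and its other counts were the same. S100a4, counted as lower, passed the count minimum only through the adult libraries, which fixed its direction.

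**Figure D5:**
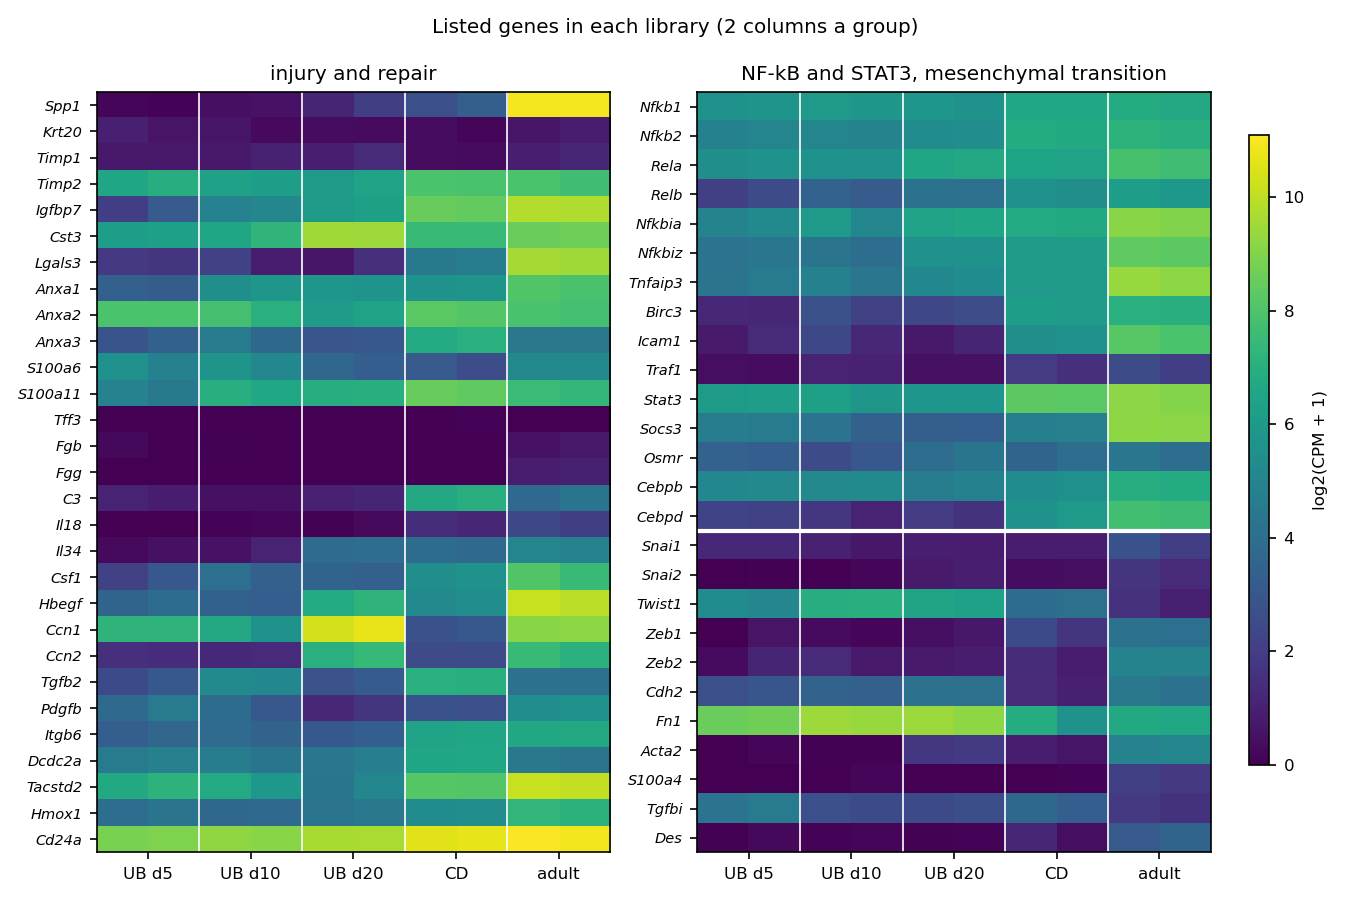
Log2(CPM + 1) of the injury and repair list (left) and of the NF-kB and STAT3 and mesenchymal transition lists (right), with 2 columns a group. Spp1, Lgals3 and Socs3 are brightest in the adult columns, C3 and Tgfb2 in the CD organoid columns, Ccn1 at day 20, and Twist1 and Fn1 in UB organoids.

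Genes tied to Cd44 and to the other receptors were read from 2 more lists. Of 11 genes of hyaluronan turnover and Cd44 splicing, 3, 1, 1 and 2 were called higher and 1, 0, 2 and 3 lower between cultured groups, and 4, 3, 5 and 2 higher and 0, 1, 1 and 0 lower against adult mCDs. For both lists, the shares of all tested genes between cultured groups were 2.34%, 1.66%, 4.96% and 4.74% higher and 1.07%, 1.73%, 5.71% and 4.73% lower. Against adult mCDs they were 9.55%, 9.1%, 6.89% and 4.5% higher and 14.8%, 13.4%, 12.3% and 9.84% lower. Cemip, which degrades hyaluronan, stood at 47.3 ± 2.87 CPM at day 20 and 7.18 ± 2.64 at day 10 (2.71, adjusted p = 4.19e-06), and Esrp2, a regulator of epithelial splicing, at 111 ± 4.08 CPM in CD organoids and 20.6 ± 0.930 at day 10 (2.42, adjusted p = 5.62e-11). Of 12 binding partners and relatives of the members, 11 were tested, edgeR called none in either step of UB culture (7 and 5 had an unadjusted p under 0.05, and DESeq2 called none), and 4 were called lower and none higher in CD organoids against day 10 and again against day 20. Prom2, the relative of Prom1, fell from 116 ± 1.21 CPM at day 10 to 8.44 ± 1.67 in CD organoids (-3.78, adjusted p = 1.08e-11), where Prom1 was at its highest. Itga4, part of the Vcam1 receptor, fell from 17.8 ± 4.28 to 1.30 ± 0.478 CPM (-3.70, adjusted p = 5.16e-08). Lrp2, a receptor for Lcn2 in the proximal tubule, stood at 1108 ± 113 CPM in adult mCDs and 5.10 ± 0.269 in CD organoids. Against adult mCDs this list had 4, 3, 3 and 1 genes higher and 3, 3, 3 and 4 lower. Timd2, counted as lower in each, passed the count minimum only through the adult libraries, which fixed its direction. For this list, DESeq2 called 3 genes rather than 4 higher at day 5 than in adult mCDs, and its other counts were the same.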

How the data were processed

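RNA-seq of 10 mouse libraries in 5 groups was analysed. Per the study's methods, the authors trimmed reads, aligned them with STAR to the GENCODE mm10 release and quantified genes in Partek Flow, whereas the submitters' processing notes name FastQC 0.11.8, cutadapt 2.5, Trimmomatic 0.36, STAR and edgeR 3.28.1 with GRCm38.p6. The table the authors deposited holds raw read counts, RPKM (reads scaled by the table's gene length and by library size) and a TMM-scaled signal per gene, which was read but not tested. Labels name RNeasy and TruSeq kits and the study names others, so strand handling is not settled here.

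Counts were tested with edgeR 4.0.16 (R 4.3.3, glmQLFit and glmQLFTest, TMM factors, prior count 1 for fold changes) in 1 fit over all 10 libraries, on 24410 genes with at least 10 counts in all, and Benjamini-Hochberg adjusted p was taken over all of them. On simulated counts for CD organoids against day 10 over 23601 genes, 100 of 100 genes changed 8-fold and 100 of 100 changed 32-fold were recovered, with 2 false calls. The changed genes were drawn only from well-covered genes, and both folds lay above the 4-fold limit. Recovery of genes as low as Havcr1, or of changes near the limit, was thus not tested. RPKM was recomputed with merged exon lengths of GENCODE M21. This was added after seeing the data. The 7 members, the lists and the markers were chosen with earlier results of these data known, and the named genes are all members, the 3 genes most like each, and from each list up to 3 called genes a direction with the largest fold and at least 10 CPM in the higher group. Of these, the text gives examples. Alternatives were DESeq2 1.42.0, limma 3.58.1 on log2 RPKM, other scalings, filters and thresholds, a replicate block, and leaving out each library. Samples of other studies that the authors compared were not analysed here.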

Additional observations from a re-analysis of the deposited data

How the results depend on the processing

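Comparisons are given in the order day 10 against day 5, day 20 against day 10, CD organoids against day 10 and day 20, and then day 5, day 10, day 20 and CD organoids against adult mCDs. With a threshold of adjusted p 0.05 at any fold, 7970, 7083, 11530, 10311, 15340, 15080, 13761 and 12170 genes were called, with 5 of the 7 members in each of the first 4. Limma on log2(RPKM + 1), which shrinks low genes, called 77, 123, 571, 540, 1920, 1657, 1478 and 1049 genes, and of the members 1 at day 10 against day 5, 2 at day 5 and 2 at day 10 against adult mCDs, and 3 in CD organoids against adult mCDs. At day 20 against adult mCDs, Vcam1 and Havcr1 also lost their calls with limma. A pseudocount of 0.1 gave 380 and 487 genes, and a prior count of 5 gave 518 and 548, in the first 2 comparisons. Library totals alone moved the share of calls that were higher than in adult mCDs from 39.2%, 40.4%, 35.9% and 31.4% to 49.8%, 55.5%, 49.5% and 44.4%. With each library left out in turn, 640 to 1049, 586 to 1048, 2259 to 2583, 1994 to 2402, 5240 to 6054, 4770 to 5422, 4145 to 4830 and 2984 to 3652 genes were called, with 2 to 3 members at day 10 against day 5 and the main count of members otherwise. Among all alternatives, direction turned for 4 differences, none of them called, when a library was left out: Vcam1 at day 20 against day 10 (-0.52 to 0.63), Cd44 in CD organoids against day 20 (-0.23 to 0.12), and Lcn2 (-0.087 to 0.55) and Cd44 (-0.35 to 0.48) at day 10 against adult mCDs. Replicate numbers were not used to pair the samples. Deviations of same-numbered libraries correlated between -0.102 and 0.0925 over all genes compared, which cannot exclude a pairing that shows in few genes. A fit with the replicate number as a block called 826, 820, 2583, 2284, 5840, 5369, 4601 and 3414 genes with the member counts unchanged. The cause of these shifts was not tested. Depth limits Havcr1 and Vcam1 in culture, where differences of a few counts cannot be seen.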
